A study of Rattus norvegicus with 31 samples.

Results

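Fos, Junb and Jun, which encode 3 subunits of the transcription factor AP-1, were followed in rat striatum on Illumina RatRef-12 BeadChips. They were chosen by name, as the probes annotated with these symbols. Each gene had 1 such probe, so that 3 of the 22519 probes used, and 3 of the 13334 genes with a symbol, were members. In the rat assembly GRCr8, Fos (probe ILMN_1368356) lies on chromosome 6 at 110852188 to 110855054, Junb (ILMN_1350784) on chromosome 19 at 40081126 to 40082910, and Jun (ILMN_1365705) on chromosome 5 at 115009900 to 115012993. All 3 are protein-coding genes. All 3 probes passed the filter on dim probes, a detection p-value under 0.01 on at least 4 arrays, which 9732 probes passed.

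The study asked how methamphetamine (METH), a psychostimulant that releases dopamine (DA), changes gene expression in striata that have lost their DA input. Male Sprague-Dawley rats received 6-OHDA, a compound that destroys catecholamine neurons after their transporters take it up, into the left medial forebrain bundle (5 µl at 2 µg/µl) under chloral hydrate, and were later tested with apomorphine and with METH for rotation. The rats given saline and those given METH at 2.5 mg/kg had been matched for their rotation in the METH test, and the tissue was collected 2 h after this last injection. One array was hybridised per striatum, 31 in all. SNL (5 arrays) was the non-lesioned side and SL (6) the lesioned side of lesioned rats given saline. MNL (6) was the non-lesioned side and ML (6) the lesioned side of lesioned rats given METH. SC (4) and MC (4) were striata of control rats without 6-OHDA, given saline and METH. All 4 groups from lesioned rats therefore carried a lesion on 1 side and, by the rotation tests, earlier drug exposure, while SC and MC had no 6-OHDA. Which of the lesioned and non-lesioned striata belonged to the same animal is not in the labels, and spread between striata is therefore all that the p-values cover.

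AP-1 is a dimer of basic leucine-zipper proteins, made of a Fos protein with a Jun protein or of Jun proteins with each other, that binds a short palindromic site in DNA. Fos and Junb are immediate-early genes, transcribed within minutes of a stimulus by factors already present in the cell, with transcripts that are short-lived. In medium spiny neurons, the main neurons of the striatum, such genes are known to respond to psychostimulants through DA receptors and glutamate receptors. Jun is the partner first described for Fos, and JunB is known as a weaker activator that can oppose c-Jun at some genes.

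The sequence upstream of Junb is shown because Junb passed the threshold after METH on the non-lesioned side (below), and immediate-early genes are known to be switched on through short elements close to their start. RefSeq places these 250 bases before the Junb start at chr19:40080876-40081125 (GRCr8, plus strand).
Junb: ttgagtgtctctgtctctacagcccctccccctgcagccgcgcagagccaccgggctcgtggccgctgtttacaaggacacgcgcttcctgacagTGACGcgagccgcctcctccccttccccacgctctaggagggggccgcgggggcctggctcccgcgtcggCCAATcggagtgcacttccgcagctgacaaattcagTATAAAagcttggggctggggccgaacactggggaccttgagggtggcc
Capitals mark the matches to the motifs searched. They are a TGACG, the half-site of the cAMP response element (CRE), at -155 to -151 from the start, a CCAAT box at -85 to -81 and a TATAAA at -49 to -44, all on the plus strand. Both strands were searched, and over the 33469 RefSeq windows of this length TGACG was present in 18.2%, CCAAT in 34% and TATAAA in 12.9%. The full CRE, TGACGTCA, which contains TGACG, was in 1.59% of windows, the AP-1 site TGANTCA in 6.34%, the GC box GGGCGG in 30.5% and the CArG box in 1.5%, and none of these 4 had a match in the Junb window. These matches are descriptions of the letters only. Fos and Jun were not among the matched promoter entries.

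The arrays held the RNA of striatum. All 15 tested markers of medium spiny neurons, such as Ppp1r1b (DARPP-32), Penk and Rgs9, were detected on all 31 arrays, while Th, Slc6a3, Slc18a2, Ddc and Pitx3, markers of DA neurons whose cell bodies lie outside the striatum, were detected on 0 arrays. Aldh1a1, the other gene of that list with a probe, was detected on all 31. Of 5 tested markers of cortical excitatory neurons, Nrgn was detected on 31 arrays, Neurod6 on 28, Emx1 on 14, Slc17a7 on 12 and Neurod2 on 9. Neurod6 had the widest error of these, at -0.32 (SE 0.50) in MNL against SNL and 0.145 (SE 0.48) in ML against MNL. None of them passed the threshold, and the part of cortical tissue in the dissections was not tested. Between 8042 and 9451 probes were detected per array, and the lowest detected signal lay between 15.3 and 27.0. The signals of ML replicate 22 and SL replicate 32 stood 4 rows off the probe names and were moved back, and the comparisons of the 3 members were also computed without these arrays. In tissue RNA, fewer responding cells and less RNA per cell cannot be told apart.

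Fos was the dimmest member, close to the detection limit in saline-treated striata. In SNL its background-subtracted signals were 6.13, 10.4, 17.9, 19.0 and 36.3, and it was detected at p under 0.01 on 1 of 5 arrays, with detection p between 0.00242 and 0.162. In SC the signals were 11.3, 16.7, 25.3 and 34.1, and it was detected on 2 of 4 arrays. In SL they ran from 13.2 to 49.8 with a median of 22.4, and 4 of 6 arrays detected it. Each saline group thus mixed arrays with and without a detected Fos. At a detection p of 0.05 the counts were 3 of 5 in SNL, 4 of 4 in SC and 6 of 6 in SL. After METH, Fos was detected on every array, 6 of 6 in MNL, 6 of 6 in ML and 4 of 4 in MC. The signals ran from 41.3 to 137 with a median of 76.0 in MNL, and from 31.9 to 81.7 with a median of 45.6 in ML. In MC they were 33.7, 71.0, 97.4 and 103. The highest detection p in any METH-treated striatum was 0.00485.

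**Figure D1:**
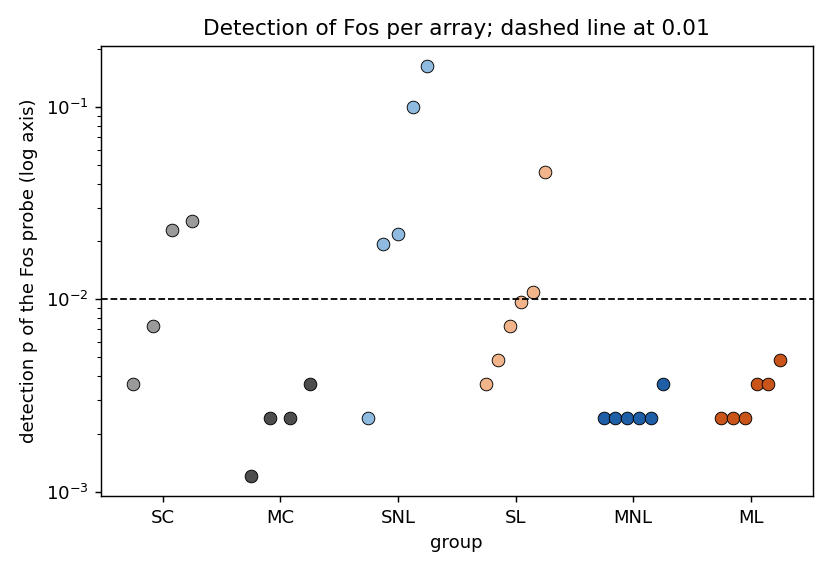
Detection p-value of the Fos probe on each array, by group, on a log axis. The dashed line marks 0.01; all METH-treated striata (MC, MNL, ML) lie below it, and 1 of 5 SNL, 2 of 4 SC and 4 of 6 SL arrays do.

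On the non-lesioned side of hemiparkinsonian rats, Fos rose after METH. On the normalized log2 scale, on which 1 unit is a doubling, the MNL arrays ran from 6.14 to 6.76 with a median of 6.58. The SNL arrays were at 4.72, 4.82, 5.02, 5.03 and 5.77. Each MNL array stood above each SNL array. The means were 6.52 ± 0.24 (SD, n = 6) and 5.07 ± 0.41 (n = 5), a log2 fold change of 1.45 (SE 0.19, 95% interval 1.06 to 1.84) or 2.73-fold, with an adjusted p of 9.35e-05 by limma. This was the smallest p among the 9732 probes, of which 0.113% were higher past an adjusted p of 0.05 in this comparison and 0.247% were higher with no overlap between the groups. The added offset of 16 compresses a dim probe, and in the deposited log2 table, which has none, the change was 2.28 (adjusted p 0.000591 by limma). The call passed when any 1 of the 11 arrays was left out, and the unpaired test of the study's methods gave 2.37 on its own log2 scale. Fos passed the thresholds of those methods (1.7-fold at an unadjusted p under 0.025), as did 32 of the 9732 probes, and Benjamini-Hochberg adjustment of that test, which the methods did not use, gave an adjusted p of 0.422 and called 0 probes.

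In control rats Fos was also higher after METH, by a smaller estimate that did not pass the threshold. The SC arrays were at 4.90, 5.16, 5.46 and 5.62. The MC arrays were at 5.84, 6.28, 6.73 and 6.86. The groups did not overlap, as for 0.945% of probes in this direction, and the log2 fold change was 1.15 (SE 0.22, interval 0.69 to 1.60, adjusted p = 0.0764 by limma), where 0.0103% of probes were called. An exact permutation test of this value gave p = 0.0286, two-sided and unadjusted, the smallest that 4 arrays against 4 allow. Groups that do not overlap must give this p. The change passed in 1 of 8 fits that left out 1 array, over which it ran down to 1.00 and adjusted p up to 0.74 by limma. This was the fit without MC replicate 13, the lowest MC array, at 1.34 with an adjusted p of 0.00878 by limma. The title of this replicate carries the letter a, described under Junb below. The METH effects of the non-lesioned side and of controls differed by 0.30 (SE 0.29), within their error, and the means of MNL and MC differed by 0.09 (interval -0.33 to 0.51).

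On the lesioned side the estimated METH effect on Fos was smaller and did not pass the threshold. The SL arrays ran from 5.01 to 6.09 with a median of 5.29. The ML arrays ran from 5.71 to 6.15 with a median of 5.96. The groups overlapped through SL replicate 28, the highest saline array of the series, which 1 of 6 ML arrays exceeded. The log2 fold change was 0.56 (SE 0.18, interval 0.19 to 0.94, unadjusted p = 0.00415 and adjusted p = 0.9999 by limma), in a comparison in which 0% of probes were called and 1.9% had an unadjusted p under 0.05. Without SL replicate 28 the estimate was 0.71, and it still missed the threshold (adjusted p = 0.9997 by limma).

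The 2 METH effects on Fos, lesioned side less non-lesioned side, differed by -0.88 (SE 0.26, interval -1.42 to -0.35, unadjusted p = 0.00218). This difference missed the threshold over all probes (adjusted p = 0.9997 by limma), as did every probe (0% called, 2.14% with an unadjusted p under 0.05), and was -1.44 in the deposited log2 table. Set directly against MNL, ML was lower by a log2 difference of -0.57 (SE 0.18, interval -0.94 to -0.20, adjusted p = 0.894 by limma). Against SNL, the saline side without lesion, ML was higher by 0.87 (SE 0.19, interval 0.49 to 1.26, adjusted p = 0.0702 by limma), with 0.0925% of probes called, and by 1.55 in the deposited log2 table. The ML and SNL difference passed in 1 of 11 fits that left out 1 array. This was the fit without SNL replicate 27, the highest SNL array and the 1 SNL array that detected Fos. It gave 1.05 with an adjusted p of 0.00524 by limma. Without SNL replicate 19, the lowest SNL array, the difference was 0.79 (adjusted p = 0.328 by limma). These comparisons share the ML, MNL and SNL arrays. The METH effect on Fos of the lesioned side less that of controls was -0.58 (SE 0.29, unadjusted p = 0.0523 and adjusted p = 0.986 by limma). The lesion alone gave Fos a difference of 0.31 between SL and SNL (SE 0.19, interval -0.08 to 0.70), which did not pass and was 0.17 without SL replicate 28, 0.49 without SNL replicate 27 and 0.71 in the deposited log2 table.

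**Figure D2:**
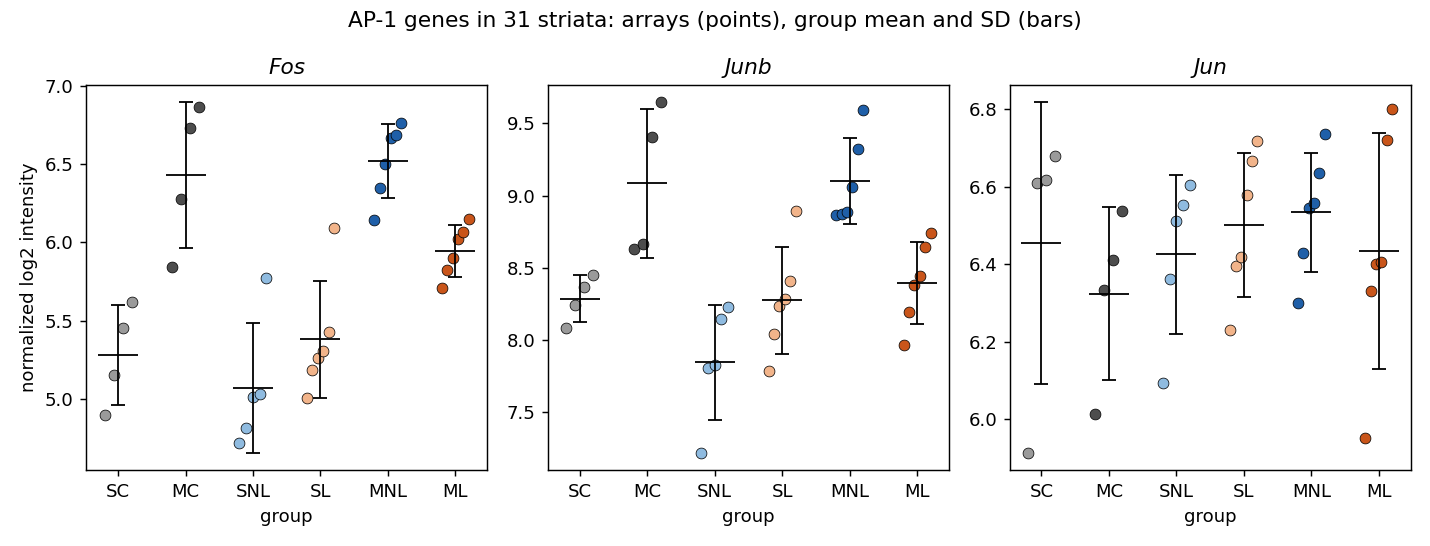
Normalized log2 intensity of Fos, Junb and Jun on the 31 arrays by group; points are arrays, the long bars group means and the whiskers 1 SD, and the vertical scale differs between genes. All MNL arrays lie above all SNL arrays for Fos and Junb, all MNL arrays lie above all ML arrays for Junb, and the 6 groups overlap for Jun.

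Junb, the brightest member, rose after METH on the non-lesioned side and differed little between saline and METH on the lesioned side. It was detected on every array of every group. The MNL arrays ran from 8.86 to 9.59 with a median of 8.97. The SNL arrays were at 7.22, 7.80, 7.83, 8.14 and 8.23. The groups did not overlap, as for 0.247% of probes in this direction, with means of 9.10 ± 0.30 (SD, n = 6) and 7.84 ± 0.40 (n = 5). The log2 fold change was 1.25 (SE 0.20, interval 0.85 to 1.66), or 2.39-fold, with an adjusted p of 0.00132 by limma, ranked 5 of all probes by p. It passed when any 1 array was left out, at 1.10 to 1.35. Under the methods' unpaired test the difference was 1.41 and passed those methods' unadjusted thresholds, with an adjusted p of 0.772 after Benjamini-Hochberg.

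On the lesioned side the SL arrays of Junb ran from 7.78 to 8.89 with a median of 8.26. The ML arrays ran from 7.97 to 8.74 with a median of 8.41. The ML range lay within the SL range, and the log2 fold change was 0.12 (SE 0.19, interval -0.27 to 0.51), and 0.02 to 0.24 when 1 array was left out. The interval excluded a change as large as the lower bound of the non-lesioned side, 0.85. The 2 METH effects differed by -1.13 (SE 0.28, interval -1.70 to -0.57, unadjusted p = 0.000293), ranked 5 of all probes by p in this comparison, and the adjusted p over all probes was 0.507 by limma. Without SNL replicate 19 this difference was -0.98 (unadjusted p = 0.00104 and adjusted p = 0.9998 by limma). The METH effect of the lesioned side less that of controls was -0.68 (SE 0.30, unadjusted p = 0.0322 and adjusted p = 0.986 by limma). Each ML array stood below each MNL array, as for 0.144% of probes in this direction, with a log2 difference of -0.70 (SE 0.19, fold 1.63 lower, adjusted p = 0.394 by limma), where 0.0719% were called lower. By an exact permutation test of this value, unadjusted and two-sided, p was 0.00216, the smallest that 6 arrays against 6 allow. Groups that do not overlap must give this p, so it adds nothing to the lack of overlap.

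In control rats the SC arrays of Junb were at 8.08, 8.24, 8.37 and 8.45. The MC arrays were at 8.63, 8.66, 9.40 and 9.64. The MC arrays fell into a lower pair (replicates 5 and 13) and a higher pair (7 and 14), both above SC. Such a lack of overlap was seen for 0.945% of probes in this direction. The log2 fold change was 0.80 (SE 0.23, interval 0.32 to 1.28, adjusted p = 0.769 by limma). Sample titles mark the lower pair with the letter a and the higher pair with b, and Fos split the same way. In SC, replicates 6, 8a and 15 were marked a and replicate 16 b. What the letter stands for is not stated, and its part was not tested. MNL and MC had nearly the same mean, 9.10 and 9.08, and differed by 0.02 (SE 0.21). ML was 0.69 lower than MC (unadjusted p = 0.00301, adjusted p = 0.652 by limma), in a comparison in which 0.0822% of probes were called. Against SNL, ML was higher by 0.55 (adjusted p = 0.93 by limma). Between saline groups, SL exceeded SNL by 0.43 (interval 0.02 to 0.84, adjusted p = 0.908 by limma), where 0.0822% of probes were called, and SNL replicate 19 was the lowest array for Junb and for Fos. Without it the SL and SNL difference of Junb was 0.27. SNL less SC was -0.44 for Junb (interval -0.89 to 0.01, adjusted p = 0.987 by limma), and -0.28 without SNL replicate 19.

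Jun showed no change past the threshold in any of the 10 comparisons of groups. Its MNL arrays ran from 6.30 to 6.73 with a median of 6.55. The SNL arrays ran from 6.09 to 6.603 with a median of 6.51. They overlapped, with means of 6.53 ± 0.15 (SD, n = 6) and 6.42 ± 0.21 (n = 5), and the log2 difference was 0.11 (interval -0.18 to 0.40). In controls the SC arrays were at 5.91, 6.61, 6.62 and 6.68. The MC arrays were at 6.01, 6.33, 6.41 and 6.54. MC was lower by a log2 difference of -0.13 (SE 0.17), and ML and SL differed by -0.07. The largest estimate over the 10 comparisons was 0.21, for MNL less MC (interval -0.10 to 0.52), the smallest unadjusted p was 0.18, and all 10 intervals lay between -0.47 and 0.52. Jun was detected on every array, with signals of 39.9 to 107. A change of Jun as large as the 1.45 of Fos in MNL against SNL lay outside these intervals.

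**Figure D3:**
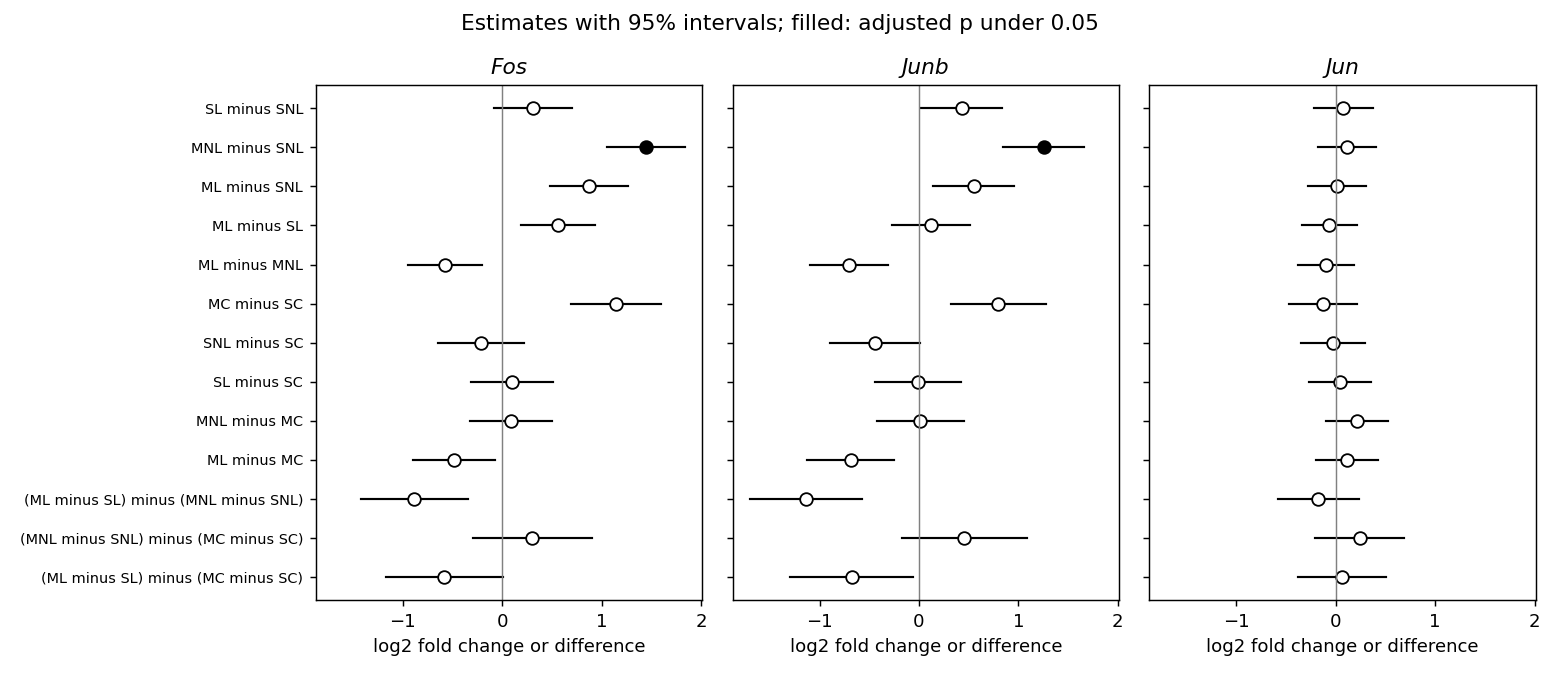
Estimates for Fos, Junb and Jun in 10 pairs of groups, and for 3 contrasts of one METH effect with another, with 95% intervals, on the log2 scale; filled points passed an adjusted p of 0.05 by limma. The filled points are MNL less SNL for Fos (1.45) and Junb (1.25), and all Jun intervals of group comparisons lie between -0.47 and 0.52.

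Ordered by mean normalized level, Fos ran from SNL (5.07) through SC (5.28), SL (5.38), ML (5.94) and MC (6.43) to MNL (6.52). The steps between neighbours were 0.21, 0.10, 0.56, 0.48 and 0.09, and none passed the threshold. Junb ran from SNL (7.84) through SL (8.27), SC (8.28), ML (8.40) and MC (9.08) to MNL (9.10), with steps of 0.43, 0.01, 0.11, 0.69 and 0.02, none past the threshold. For both genes the means of the 3 METH groups stood above those of the 3 saline groups, with ML the lowest of the METH groups. SL and SC, compared directly, differed by 0.10 for Fos, -0.01 for Junb and 0.05 for Jun, none called, in a comparison in which 0.164% of probes were called. Of the 15 saline arrays the highest was SL replicate 28 for both genes. It was exceeded for Fos by 6 of 6 MNL, 3 of 4 MC and 1 of 6 ML arrays, and for Junb by 3 of 6 MNL, 2 of 4 MC and 0 of 6 ML arrays. Jun ran from MC (6.32) to MNL (6.53) in an order of its own, with steps of 0.10 or less.

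Across the 31 arrays Fos and Junb varied together. Pearson's r was 0.897 and Spearman's rho 0.885, and after the group means were taken out r was 0.77, so that arrays high for 1 gene within a group tended to be high for the other. SL replicate 28 and SNL replicate 19 are such arrays, high and low for both. Jun followed neither, with r of -0.02 to Fos and -0.06 to Junb. The points share the same RNA and array, and these values are descriptions.

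**Figure D4:**
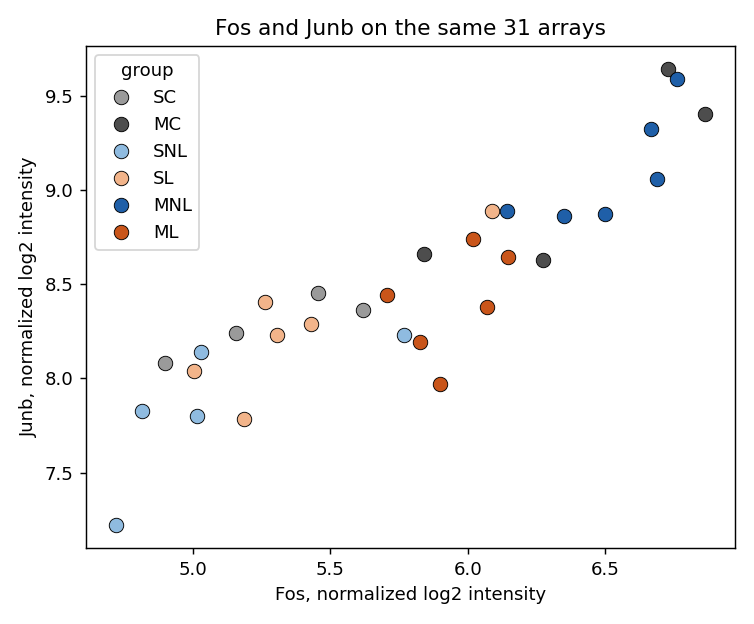
Junb against Fos, normalized log2 intensity, with 1 point per array coloured by group (31 arrays). The points rise together (r = 0.897), with SNL replicate 19 at the lower left and MNL and MC arrays at the upper right.

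The tested genes most like Fos over the 31 arrays were Nr4a3, an orphan nuclear receptor (r = 0.928), Junb (0.897), the zinc-finger factors Egr2 (0.892) and Egr4 (0.887), and Arc, a protein of active synapses (0.859). Those most like Junb were Egr4 (0.949), Egr2 (0.925), Arc (0.920), Fos (0.897) and Nr4a3 (0.878). The 5 most like Jun were Tmem97 (0.745), Dkk3 (0.700), Tfap2d (0.674), Cnrip1 (0.666) and Tgfb2 (0.656), none of which was among the 5 of Fos or of Junb.

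Of 30 other immediate-early genes, 25 had a probe and 22 were tested. In MNL against SNL 6 rose (Egr2 by 2.00, Egr4 by 1.83, Nr4a3 by 1.83, Arc by 1.55, Klf10 by 1.01 and Egr1 by 0.99 on the log2 scale, with adjusted p from 9.35e-05 to 0.00762 by limma), and 19 of 22 estimates were above 0, with a median of 0.60 against -0.01 over all probes, of which 0.113% were called. In ML against SL 0 of 22 passed by limma (5 at an unadjusted p under 0.05, as were 1.9% of all probes), 16 were above 0 and the median was 0.09, with the largest values at Nr4a3 (0.76), Ptgs2 or COX-2 (0.62), Klf10 (0.56) and Klf4 (0.45). Egr1, Egr2 and Arc, which rose on the non-lesioned side, were at 0.02, 0.11 and 0.07 here. In MC against SC 0 passed by limma (9 at an unadjusted p under 0.05, as were 6.25% of all probes), 19 were above 0 and the median was 0.33, led by Nr4a3 (1.61), Egr2 (1.17), Egr4 (1.14) and Arc (0.72).

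Set directly against MNL, 3 immediate-early genes were lower in ML past the threshold, as were 0.0719% of all probes: Egr2 by a log2 difference of -1.50 (adjusted p = 0.00408 by limma), Egr4 by -1.12 (adjusted p = 0.0361) and Egr1 by -0.99 (adjusted p = 0.00573). Arc (-0.94), Nr4a3 (-0.86) and Per1 (-0.72) did not pass, and Ptgs2 was at 0.64, in the other direction. Fos (-0.57) and Junb (-0.70) were also lower and did not pass. The genes named here were chosen as past the threshold or by the size of their change, so no rank of Fos and Junb follows. For the difference between the 2 METH effects Egr2 was at -1.89 and Egr4 at -1.59, beside -1.13 for Junb and -0.88 for Fos, and none passed. In ML against SNL, where Fos stood at 0.87, Ptgs2 was the 1 list member that rose (1.40, adjusted p = 0.016 by limma).

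**Figure D5:**
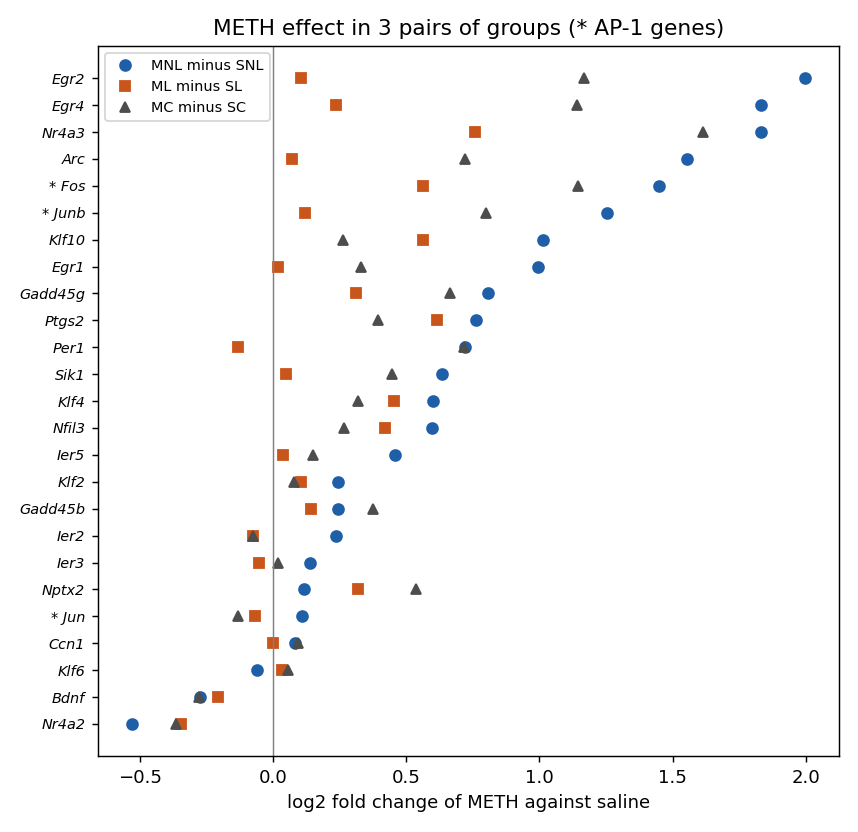
Log2 fold change of METH against saline for 22 immediate-early genes and the 3 AP-1 members (asterisks), ordered by MNL less SNL (circles), with ML less SL (squares) and MC less SC (triangles). Fos and Junb lie at 1.45 and 1.25 on the non-lesioned side and at 0.56 and 0.12 on the lesioned side, and Jun lies at 0.11 and -0.07.

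The remaining AP-1 family gave few values. Of 20 other genes of AP-1 proteins and bZIP proteins that pair with them, 14 had a probe and 9 were tested, and 0 passed by limma in any comparison (1 at an unadjusted p under 0.05 in MNL against SNL, 0 in ML against SL and 1 in MC against SC, beside 5.21%, 1.9% and 6.25% of all probes). Their median was 0.05 in MNL against SNL, 0.01 in ML against SL and 0.08 in MC against SC. Ddit3 (CHOP), a stress-response factor, had the largest estimates, 0.34 in MNL against SNL (adjusted p = 0.839 by limma) and 0.45 in MC against SC (adjusted p = 0.769 by limma). Jdp2, which pairs with Jun proteins and represses, was at 0.23 in ML against MNL. Fosb, Fosl1, Fosl2 and Jund were among those with no named probe here.

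Regulators upstream of Fos and Jun also stayed under the threshold. Of 28 kinases and factors that act on them, 19 had a probe and 13 were tested, and 0 passed by limma in MNL against SNL or ML against SL (2 and 1 at an unadjusted p under 0.05, beside 5.21% and 1.9% of all probes). Srf, the serum response factor that binds the Fos promoter, was at 0.36 in MNL against SNL (adjusted p = 0.64 by limma), and Crem, a CRE-binding factor, at 0.34 there and 0.25 in ML against SL. Of 10 MAP kinase phosphatases and feedback regulators 5 were tested and 0 passed by limma, with 3 at an unadjusted p under 0.05 in MNL against SNL and 3 in ML against MNL, beside 5.21% and 2.21% of all probes. All 5 had estimates above 0 in MNL against SNL (median 0.37) and below 0 in ML against MNL (median -0.41). Both comparisons use the MNL arrays, with opposite sign, so the 2 patterns are not separate. Dusp1, which inactivates MAP kinases and is itself an early gene, was at 0.77 (SE 0.21, adjusted p = 0.339 by limma) and -0.64, and Dusp6, the ERK phosphatase, at 0.42 and -0.58 (adjusted p = 0.455 by limma). In ML against SL, which does not use the MNL arrays, 3 of 5 were above 0 (median 0.10).

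Of 22 genes described as targets of AP-1 or of deltaFosB, 17 were tested and 0 passed in MNL against SNL, ML against SL, ML against MNL or MC against SC, with medians of 0.06, 0.08, 0.01 and -0.05 and with 2, 1, 4 and 2 at an unadjusted p under 0.05 by limma, beside 5.21%, 1.9%, 2.21% and 6.25% of all probes. Nts, the neuropeptide neurotensin, was the largest in MNL against SNL (0.72, adjusted p = 0.839 by limma), and Plat, tissue plasminogen activator, in ML against SL (0.46, adjusted p = 0.9999 by limma). Nts differed with the lesion, by 1.48 in SL against SNL (adjusted p = 0.0104 by limma) and 1.87 in ML against SNL (adjusted p = 0.000352 by limma), comparisons in which Fos was at 0.31 and 0.87 and did not pass. Pdyn, the precursor of dynorphin, was at -0.80 in ML against MNL (adjusted p = 0.0708 by limma).

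Markers of glia and of choroid plexus did not pass the threshold in MNL against SNL or in ML against MNL, and their estimates are given beside the Fos and Junb values. In MNL against SNL oligodendrocyte markers had a median of -0.20 (1 of 10 above 0) and astrocyte markers of -0.155 (2 of 6). Microglia markers were at 0.19 (7 of 9) and choroid plexus markers at -0.22 (0 of 5). The glial medians in ML against MNL were 0.03 for oligodendrocyte (6 of 10), 0.066 for microglia (7 of 9) and -0.075 for astrocyte markers (2 of 6). The summed level of the microglia markers ran from 3677 to 5404 in SNL and from 4504 to 5885 in MNL, and that of the oligodendrocyte markers from 18890 to 27050 and from 18790 to 21390. In ML against MNL the choroid plexus markers had a median of 0.67 (5 of 5 above 0), with sums of 192 to 9804 in ML and 212 to 1089 in MNL, and medium spiny neuron markers -0.13 (4 of 15 above 0), with Tac1 lower past the threshold. Of the choroid plexus markers with a probe, Ttr was detected on all 31 arrays, Sostdc1 on 12 and Otx2 on 10. Kl and Clic6 were detected on 4 arrays each, Slc4a5 on 3, Folr1 on 2 and Kcnj13 on 0. The part of these cells in the Fos and Junb values was not tested, nor was that of the BeadChip on which each array lay, which is not given in the sources used here.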

How the data were processed

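Striatal RNA of 31 rat striata was measured on RatRef-12 arrays. The authors deposited a signal intensity per probe and array, background-subtracted and not normalized, made with BeadStudio (its version is not given in the sources used here). Each signal has a deposited detection p-value, made against that array's negative controls, and there is a deposited table of log2 values, which for at least 96.2% of probes per array is, within 0.02, the log2 of the signal less a constant of the probe in 30 arrays. For ML replicate 22 that table carries 1 minus the detection p instead, and its column was not used. Column medians of that table were between -0.12 and 0.38; scale and direction were found from the signals, and how the constant was chosen is not known.

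Of 22523 probes the first 4 were left out, since the signals of 2 arrays were moved by 4 rows (shifts of up to 10 rows were tried; for SL replicate 32 the correlation with the other arrays went from 0.215 to 0.986). No 2 arrays shared more than 1 identical signal. Probe names came from the platform annotation, updated through the GRCr8 gene table: 13790 probes had 1 symbol, 0 several and 8729 none. A gene with several probes is given by the brightest.

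Signals were processed with neqc in limma (normexp from the detection p-values, offset 16, quantile normalization, log2). The 9732 probes (7088 genes) tested had a detection p under 0.01 on 4 or more arrays. One fit of 6 group means (lmFit, eBayes; 25 residual and 4.85 prior degrees of freedom) gave 10 group contrasts and 3 contrasts of METH effects, with Benjamini-Hochberg adjustment over all tested probes within each and a threshold of 0.05. Single values were also tested by exact permutation over arrays, two-sided. The script was tested on simulated data. The number of arrays limits the precision.

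The members and gene lists were chosen with earlier results of these data known. The text names the members, list genes past the threshold with up to 4 more of the largest change in a comparison, and the 5 genes most correlated with each member; other genes are named where their value is set beside one of these, and were chosen after their values were seen. Alternatives were another detection filter or none, probes detected on every array, median scaling, the deposited log2 table, the unpaired test of the study's methods, array weights, only the groups compared, the fit without the 2 moved arrays, a block of neighbouring striatum numbers, and leaving out each array. Promoter sequence came from RefSeq (GRCr8). The software was limma 3.58.1 under R 4.3.3, and numpy 2.4.6, pandas 2.3.3 and matplotlib 3.10.9 under Python 3.11.15.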

Additional observations from a re-analysis of the deposited data

Results flagged for a closer look

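In SC the Jun level of replicate 8a, 5.91 on the normalized log2 scale, stood apart from the other 3 arrays, the nearest of which was at 6.61. Its gap was 0.906 of the range of the group, above the 95% critical value of Dixon's test for 4 samples. This was 1 flag in 18 combinations of gene and group checked, and chance flags about 1 in 20.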

How the results depend on the processing

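Of 896 values of 39 results under other settings, 842 kept their direction and their side of the threshold. Fos was too dim on some arrays to give a value among probes detected on every array, and the unpaired and permutation tests were not run for the differences between METH effects. With neighbouring striatum numbers as a replicate block, a pairing the labels do not state (10 of 11 pairs correlated above 0.1, from -0.066 to 0.71; 18 of 22 arrays correlated best with their neighbour, a hint from the data), 4 values passed: Fos ML less SNL 0.88 (adjusted p 0.03 by limma), Junb ML less MNL -0.70 (0.0241), Fos MC less SC 1.15 (0.0361) and Junb (ML less SL) less (MNL less SNL) -1.14 (0.0267); no other call on the members changed. With array weights Fos MC less SC passed at 1.10 (0.0325). Under the methods' unpaired test Fos (2.37) and Junb (1.41) in MNL less SNL passed the methods' unadjusted thresholds and no longer passed after Benjamini-Hochberg adjustment. Exact permutation tests, not adjusted, passed for Fos ML less SNL (0.87, p = 0.00433), ML less SL (0.56, p = 0.013), ML less MNL (-0.57, p = 0.00433), MC less SC (1.15, p = 0.0286) and ML less MC (-0.48, p = 0.0429), and for Junb ML less SNL (0.55, p = 0.0216), ML less MNL (-0.70, p = 0.00216), MC less SC (0.80, p = 0.0286) and ML less MC (-0.69, p = 0.0286).

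Signs turned only for values far from the threshold. These were, for Jun, ML less SNL (-0.018) and SNL less SC (0.002) with median scaling; ML less SNL (-0.059), SNL less SC (0.017) and (ML less SL) less (MC less SC) (-0.034) in the deposited log2 table; ML less SNL (-0.047) and (ML less SL) less (MC less SC) (-0.013) without the 2 moved arrays; SL less SNL (-0.014), ML less SNL (-0.034) and SL less SC (-0.12) with array weights; and Junb MNL less MC (-0.036) with array weights. Leaving out each array in turn gave Fos ML less SNL 0.79 to 1.05, Fos MC less SC 1.00 to 1.34, Fos MNL less MC -0.11 to 0.23, Fos SL less SC -0.044 to 0.21, Junb MNL less MC -0.14 to 0.20, Junb SL less SC -0.134 to 0.087, Jun ML less SL -0.14 to 0.03, Jun ML less SNL -0.073 to 0.106, Jun SL less SC -0.13 to 0.12, Jun SL less SNL -0.007 to 0.13, Jun SNL less SC -0.21 to 0.053, and Jun (ML less SL) less (MC less SC) -0.039 to 0.245. The cause of these changes was not tested. In the deposited log2 table Fos was at 1.71 in MC less SC. Over all probes, other settings gave 0 to 12 calls in MNL less SNL (11 in the fit reported), 0 to 29 in ML less MNL (12) and 0 to 5 in MC less SC (1). Signal near background limits Fos in saline groups.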
